A study of Mus musculus with 9 samples.

Results

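The transcriptome described here is that of the adult mouse spinal cord after saline alone. Female wild-type mice of the strain C57Bl/6, labelled as 10 weeks of age, had 10 µl of saline and no antisense oligonucleotide injected in a brain ventricle (the right lateral one), and their cords were taken 2 weeks later. These saline mice make up 3 of the 9 libraries of the series, chosen by their label. The other libraries, from mice given antisense oligonucleotides, were not compared with them. The saline cord is thus that of injected mice, and no library of uninjected mice was analysed here. Total RNA was taken with Trizol from cord tissue and made into strand-specific libraries. The labels do not state that each of the 3 libraries is a separate animal, so the spread between them may be technical in part. Levels are in RPKM, reads scaled to the length of the transcript and the size of the library, which allows genes to be compared within a library. Each mean is over the 3 saline libraries and is given with its standard deviation (SD, n = 3). With 1 group there is nothing to test, and all statements are descriptions of levels and of their spread.

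The spinal cord holds the cell bodies of motor neurons, the interneurons that shape movement and sensation, and long tracts of myelinated axons. Myelin is made by oligodendrocytes, which wrap axons in membrane rich in lipid and in myelin basic protein. Astrocytes clear glutamate and potassium from the space around neurons and feed them, microglia are the resident immune cells, and ependymal cells with motile cilia line the central canal. Inhibition in the cord runs through both glycine and GABA, and excitation through glutamate. Position along the body axis is written in the Hox genes, whose paralogue number follows the order from hindbrain to tail.

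The table gave 14831 genes, and 14061 of them (94.8%) reached 0.5 RPKM in all 3 saline libraries. Values under 0.5 RPKM stood at 0.1, called the floor below, and 258 genes were at the floor in all 3 and 512 in 1 or 2. A mean of 1 RPKM or more was seen for 13215 genes, of 10 or more for 6297, of 100 or more for 512 and of 1000 or more for 13. The step between the low values of short genes gave a depth of 106.3 to 123.9 M reads per library (mean 112.4 ± 9.97). At that depth 73.6% to 75% of the short genes used lay within 0.1 of a whole read. The depth was searched over a range to make this share largest. The 20% of evenly spread values holds for a depth fixed beforehand, so it is not a like baseline. Across the 14061 genes, Pearson's r of log2 levels was 0.992 between replicates 1 and 2 and 0.995 for both other pairs, over genes that are not independent replicates.

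Replicate 2 stood apart from the other two libraries in a way that followed the length of the transcript. Genes averaging 1 RPKM or more with a known exon length (12867) were split into quintiles by that length. In the quintile of the shortest genes, with a median of 1754 bases, the median log2 deviation of replicate 2 from the mean of the 3 libraries was -0.12, and in the quintile of the longest, with a median of 10156 bases, it was 0.07. Replicate 1 ran the other way, from 0.09 to -0.05, and replicate 3 from 0.03 to -0.02. Each deviation is taken from the mean of the same 3 libraries, so a rise in 1 library forces a fall in the others. The trends and correlations of the 3 libraries are therefore not independent. Replicate 2 held the highest of the 3 values for 7.11% of the shortest genes and for 66.4% of the longest. Pearson's r between a gene's deviation and the logarithm of its length was -0.37, 0.51 and -0.22 in replicates 1, 2 and 3, while the mean level was not related to length (r = 0.01). These quintiles were drawn after the values had been seen. Values below are therefore given per library, and a family of short or of long genes carries this spread; its part in any single gene's spread was not tested.

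**Figure D1:**
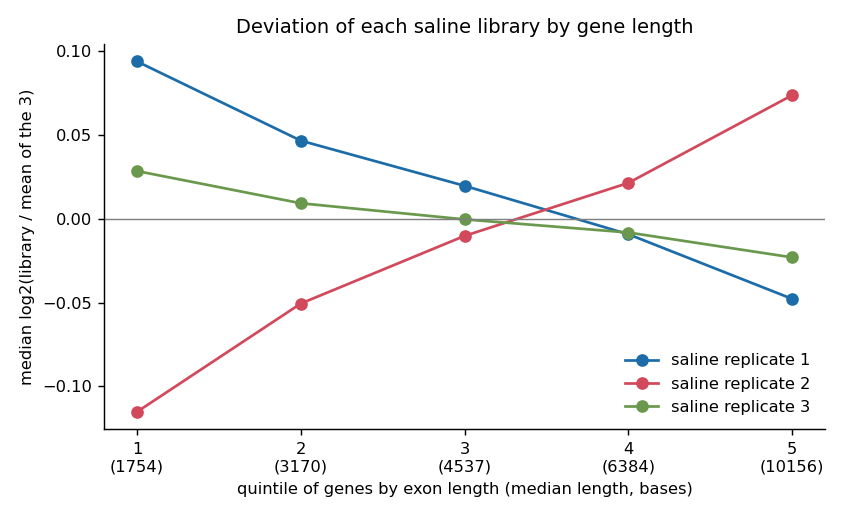
Median log2 ratio of each saline library to the mean of the 3 libraries (vertical axis) in quintiles of 12867 genes by exon length (horizontal axis, median length in bases). Replicate 2 climbs from -0.12 in the shortest quintile to 0.07 in the longest, while replicates 1 and 3 fall.

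A single gene without a symbol in the reference names, ENSMUSG00000090378, took 22.2%, 20.1% and 22.4% of the summed RPKM of the 3 libraries. The 10 most abundant genes together held 27.9% ± 1.14 and the 100 most abundant 38.2% ± 1.16, and with that gene left out of the sum these shares were 8.49% ± 0.0710 and 21.3% ± 0.266. Of the 100 most abundant genes, 90 were protein coding, 7 were pseudogenes, 1 was a long intergenic RNA and 2 had no match.

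Below this gene came a mixture of myelin, astrocyte, neuronal and housekeeping transcripts. Fth1, the heavy chain of the iron store ferritin, stood at 7792, 6032 and 7083 RPKM. Mbp, myelin basic protein, was at 2799, 2109.8 and 2289 RPKM, and replicate 1 was the highest library for both. Snap25, a part of the membrane fusion machinery of the synapse, was the leading transcript made chiefly by neurons, at 1645, 1606 and 1701 RPKM. Sparcl1, a secreted matrix protein of astrocytes, was at 1151, 1205 and 1265 RPKM. The polyubiquitin gene Ubb (1281 ± 74.1) and the actin-severing protein Cfl1 (1066 ± 69.8) were also above 1000 RPKM.

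Nedd4, a ubiquitin ligase, was the second gene of the list at 6575, 8068 and 7068 RPKM. What the deposited values of ENSMUSG00000090378, Nedd4, Ankrd17 and Cacna1e count could not be settled from the table, so these levels and their ratios to related genes are those of the table's rows and may not measure expression of these genes. Nedd4l, a close relative of Nedd4, stood at 10.1 ± 0.573, so that the ratio of the pair was 716 ± 43.3. Ankrd17, which encodes an ankyrin repeat protein, was at 1067, 1441 and 1189 RPKM. The calcium channel gene Cacna1e, just outside the 30 leading genes at 512, 665 and 538 RPKM, was 25.4 ± 1.83 times as high as Cacna1a, which encodes the P/Q-type channel. Nedd4, Ankrd17 and Cacna1e, singled out after their values were seen, were highest in replicate 2. Among the 30 leading genes, 3 were highest there (Nedd4, Ankrd17 and Scd2), 15 were highest in replicate 1 and 12 in replicate 3. Of all genes at 5 RPKM or more, 34.5% were highest in replicate 2, 41.1% in replicate 1 and 24.4% in replicate 3.

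Other leading genes were Lars2 (1172 ± 134), the RNA Snhg11 (888 ± 70.7), the calcium sensor Calm2 (776 ± 68.9), the tubulins Tuba1a (759 ± 53.5) and Tuba1b (629 ± 45.5), the elongation factor Eef1a1 (749.8 ± 57.1) and Gfap (719 ± 122), the intermediate filament of astrocytes. Scd2, a desaturase of fatty acids, stood at 659.6 ± 51.4 RPKM, the chaperones Hspa8 and Hsp90ab1 at 648 ± 33.3 and 633 ± 21.1, the sodium pump subunit Atp1b1 at 639 ± 24.1, the long RNA Meg3 at 613 ± 58.7 and Ckb, brain creatine kinase, at 605 ± 43.8. The order of the leading genes was loose: 25 of the 30 genes had a range that overlapped that of the next gene down, and 11 kept their place before the next gene in all 3 libraries.

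**Figure D2:**
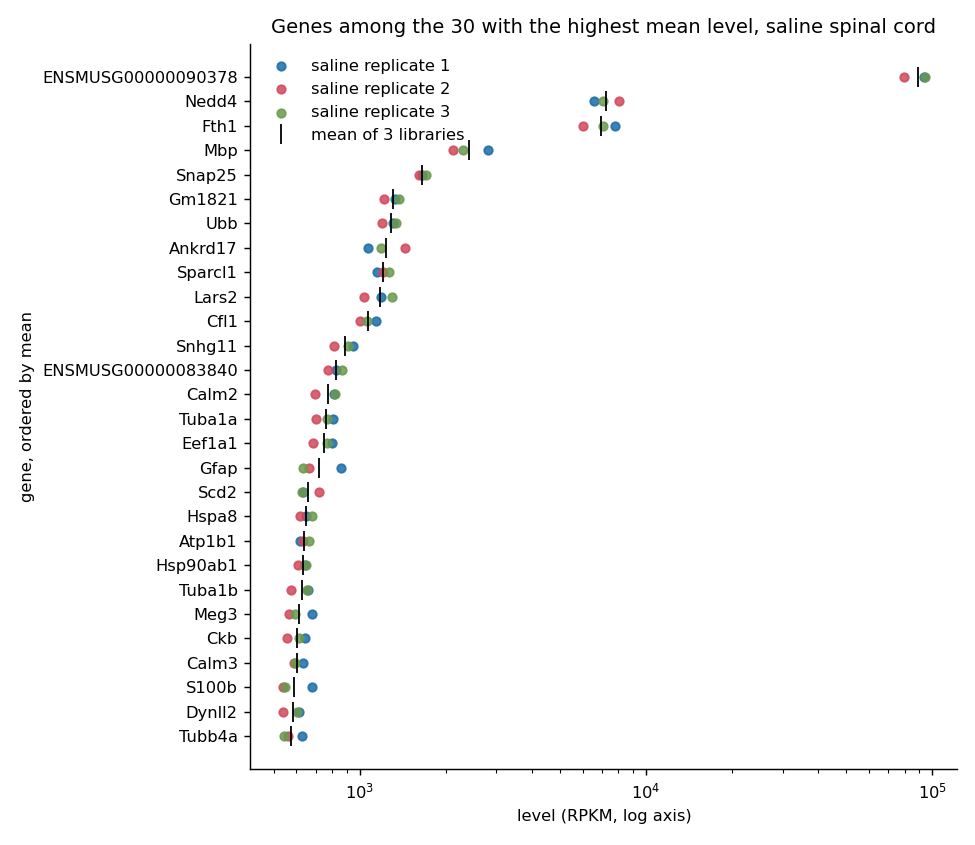
Levels of genes among the 30 with the highest mean (vertical axis, ordered by mean) in each saline library, in RPKM on a log axis; points are libraries and ticks are means. ENSMUSG00000090378 lies far above the rest, and replicate 2 is the highest point for Nedd4, Ankrd17 and Scd2.

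Cell type lists were ranked by the median level of their members. The 3 highest medians were those of pan-neuronal genes (28 of 28 listed genes analysed, median 164 RPKM), astrocyte genes (25 of 26, 143 RPKM) and genes of myelinating oligodendrocytes (26 of 26, 118 RPKM). Of all genes, 98.5%, 98.0% and 97.3% lay below these medians. Red blood cell genes followed at 80.6 RPKM (8 of 10 analysed). In bulk tissue, fewer cells of a type and less RNA per cell cannot be told apart, so the order of lists is an order of transcript levels and not of cell numbers.

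Among oligodendrocyte genes, Mbp was followed by Mobp (401 ± 27.5), a protein of compact myelin, Cnp (347 ± 33.1), an enzyme of the myelin sheath, and Trf (306 ± 28.2), the iron carrier transferrin. Replicate 1 was highest for 22 of the 26 genes, beside 41.1% of all genes at 5 RPKM or more, and the tight junction gene of myelin Cldn11 was at 291, 269.7 and 258 RPKM. Genes of the precursor cells that give rise to oligodendrocytes were lower (14 of 15 analysed, median 9.65 RPKM). Bcan, a matrix proteoglycan, led them at 66.4 ± 4.85, with the lineage factors Olig1 at 57.5 ± 3.97 and Olig2 at 17.9 ± 1.60. Pdgfra, the growth factor receptor that defines these cells, was at 7.46, 10.1 and 8.23 RPKM, and Gpr17, a receptor of cells about to myelinate, at 12.996, 12.5 and 7.99 RPKM.

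The astrocyte list was led by Sparcl1, Gfap, S100b, Glul and Ndrg2. S100b, a calcium-binding protein, stood at 682, 537 and 546 RPKM, and Glul, glutamine synthetase, which turns glutamate taken up by astrocytes into glutamine, at 417, 446 and 452 RPKM. Gfap was at 858, 665 and 634 RPKM, highest in replicate 1, and S100b had the same order of high and low libraries for replicate 1 against the rest. Slc1a2, the main glutamate transporter of astrocytes, was at 200.1, 313 and 239 RPKM, and Slc1a3, the related transporter, at 26.2, 28.5 and 27.9 RPKM, so that the ratio was 9.05 ± 1.73 and at its lowest 7.63, in replicate 1. The water channel Aqp4 (189 ± 18.0) and the potassium channel Kcnj10 (204 ± 15.6), which sit on astrocyte endfeet and processes, were each the leading member of their family, with 97.5% ± 0.0556 of the aquaporin sum and 74.4% ± 1.01 of the inward rectifier sum.

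Pan-neuronal genes were led by Snap25 and then by neurofilaments. Nefm was at 593, 496 and 550.2 RPKM, Nefl at 501, 489 and 532 RPKM and Nefh at 332, 323 and 333 RPKM. Neurofilaments fill large axons, and Nefh was below the other pair in every library, with a ratio of Nefl to Nefh of 1.54 ± 0.0496. The calcium sensor Vsnl1 (388 ± 27.8) lay between Nefl and Nefh in mean level.

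**Figure D3:**
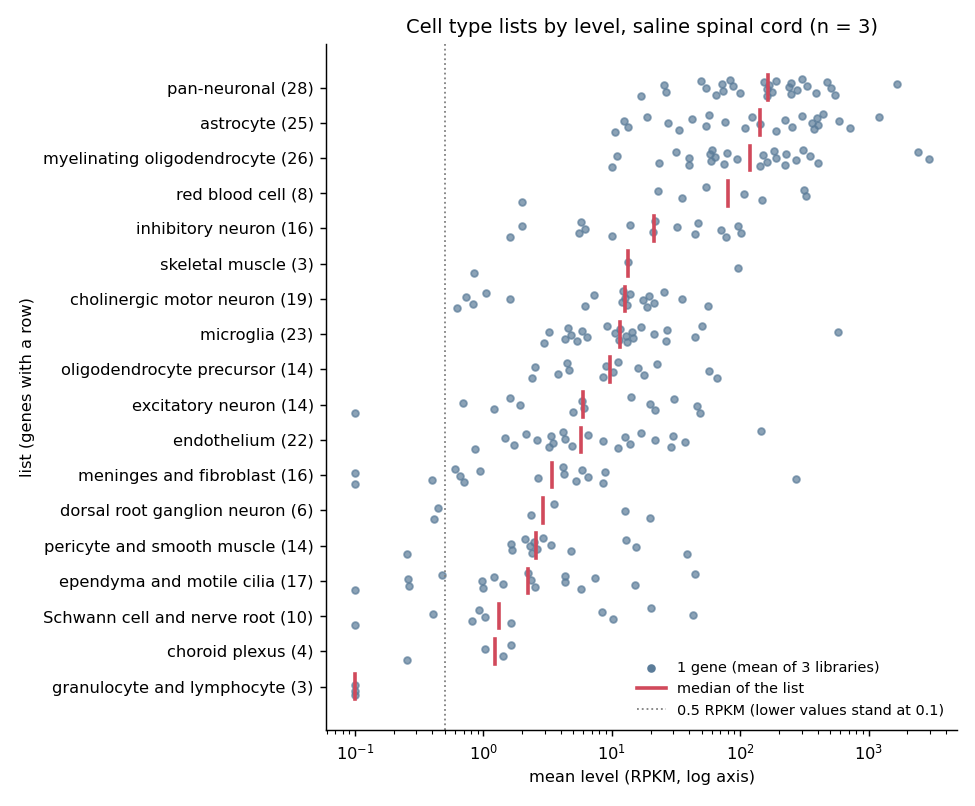
Mean level of each member of the cell type lists (points, RPKM on a log axis, mean of the 3 saline libraries) and the median of each list (bars), ordered by median, with the number of genes in brackets. Pan-neuronal, astrocyte and oligodendrocyte medians lie between 118 and 164 RPKM, red blood cell genes follow at 80.6 RPKM, and the other lists lie at 21.3 RPKM or lower.

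Cholinergic motor neurons, few in number but large, had a list median of 12.6 RPKM (19 of 21 analysed). Chat, which makes acetylcholine, stood at 6.57, 5.70 and 6.24 RPKM, and Slc5a7, which takes up choline for it, at 18.2, 18.8 and 19.1 RPKM. Slc5a7 was above Chat in every library, with no overlap. Spp1, which is known to mark large motor neurons, led the list at 56.5 ± 3.22, ahead of the esterase Ache (34.95 ± 2.53) and peripherin, Prph (25.3 ± 4.58). Isl1 and Mnx1, the transcription factors that set motor neuron fate in the embryo, were just above 0.5 RPKM at 0.627 ± 0.0856 and 0.826 ± 0.156.

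The list of inhibitory neuron genes (16 of 16 analysed) had a median of 21.3 RPKM and the excitatory list (14 of 15) one of 5.99 RPKM; the lists hold different kinds of genes, and their medians are not a comparison of the neurons. Gad1 and Gad2, which make GABA, were at 44.7 ± 2.80 and 21.7 ± 3.71. Slc32a1, which loads GABA and glycine into vesicles, was at 30.8, 31.7 and 33.8 RPKM, and Slc6a5, the glycine transporter of glycinergic neurons, at 40.1, 54.0 and 46.1 RPKM. The calcium buffer Pvalb was at 95.3 ± 13.3, and Sst and Calb2 were at 78.0 ± 11.3 and 70.3 ± 8.17. Sst and Calb2 are on the inhibitory list as markers of interneuron classes, but in the dorsal horn of the cord many neurons that make them are excitatory. Slc17a6, the vesicular glutamate transporter of the brainstem and cord, was at 42.8, 53.6 and 50.6 RPKM. Slc17a7, the form of cortical neurons, was at 0.768, 0.661 and 0.640 RPKM, so that the ratio of the former to the latter was 71.9 ± 14.1, and Slc17a8 was listed at the floor in all 3. Peptide genes made up much of the excitatory list: Tac2 was at 46.0 ± 7.75, Nts at 21.5 ± 2.19 and Tac1, the source of substance P, at 19.8 ± 2.39, beside the transcription factor Maf at 30.7 ± 1.78.

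Microglia genes (23 of 24 analysed) had a median of 11.7 RPKM. Cst3, cystatin C, was at 574 ± 60.2 and took 64.1% ± 2.03 of the list's sum, and astrocytes also make it. Below it were the lysosomal enzyme Ctss (44.0 ± 2.78) and the complement chains C1qa (26.7 ± 5.15) and C1qb (26.3 ± 3.66). The receptors P2ry12 (14.1, 14.4 and 14.3 RPKM) and Cx3cr1 (13.8, 13.7 and 11.9 RPKM) are both typical of resting microglia; P2ry12 varied little and Cx3cr1 was lowest in replicate 3. In contrast, 1 of 11 genes of perivascular macrophages was analysed, Stab1 at 0.788 ± 0.0146, and the 3 of 19 granulocyte and lymphocyte genes analysed (S100a8, S100a9 and Ngp) were at the floor in all libraries.

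Vessel genes were lower still. The endothelial list (22 of 22) had a median of 5.70 RPKM and was led by Bsg (146 ± 19.0), followed by the glucose transporter of the blood-brain barrier, Slc2a1 (37.4 ± 1.17), with Ly6c1 (30.1 ± 1.83), Itm2a (29.0 ± 2.60) and Slco1a4 (21.6 ± 2.28). Cldn5, the tight junction protein of the barrier, was at 8.18, 5.59 and 5.73 RPKM, and 12 of the 22 endothelial genes were lowest in replicate 2, beside 43.8% of all genes at 5 RPKM or more. Pericyte and smooth muscle genes (14 of 16, median 2.54 RPKM) were led by Rgs5 at 46.4, 34.0 and 34.9 RPKM, and Rgs5 held 41.1% ± 1.78 of their sum. In the meningeal list (16 of 18, median 3.42 RPKM) the prostaglandin synthase Ptgds, also made by oligodendrocytes, took 84.2% ± 2.21 of the sum at 256, 232 and 323 RPKM, whereas the collagens Col1a1 and Col1a2 were at 0.939 ± 0.120 and 5.27 ± 0.0408.

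Most of the list for ependyma and motile cilia (17 of 20, median 2.22 RPKM) moved together between libraries. Foxj1, the master regulator of motile cilia, stood at 8.44, 6.88 and 7.04 RPKM, the radial spoke protein Rsph1 at 5.22, 3.41 and 4.34 RPKM and the cilium gene Ccdc153 at 5.58, 3.32 and 4.07 RPKM. Replicate 1 was highest and replicate 2 lowest for each of these. Of the 17 genes, 13 were lowest in replicate 2 and 0 highest, beside 43.8% and 34.5% of all genes at 5 RPKM or more. The median of the list is under that level, and 13 of the 17 reached 0.5 RPKM in all 3 libraries. The median log2 deviation of the list was 0.33 in replicate 1 and -0.25 in replicate 2, beside 0.09 and -0.12 in the shortest quintile of genes, and the median length of the list was 2036 bases. The part of length in this spread was not tested.

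Hemoglobin transcripts of red blood cells were high, while genes of the tissues next to the cord were mostly low. For hemoglobin, Hba-a1 was at 344, 324 and 301 RPKM, Hba-a2 at 331, 314 and 291 RPKM, Hbb-bs at 148 ± 3.21 and Hbb-bt at 106.95 ± 1.97. The alpha chain genes are near-identical copies whose reads may be split between them, and their ratio was 1.04 ± 0.00348. Pmp22, which peripheral myelin shares with other cells, was at 42.9 ± 3.36, and the Schwann cell list (10 of 15) had a median of 1.33 RPKM, with Pmp2 at the floor in all 3. For dorsal root ganglion neurons, 6 of 14 genes were analysed (median 2.93 RPKM), led by Tac1 and Calca (12.6 ± 2.06), which spinal neurons also express. P2rx3, a receptor of pain-sensing ganglion neurons, was at 0.603, 0.635 and 0.1 RPKM. Of the choroid plexus list, 4 of 12 genes were analysed and Prlr led at 1.65 ± 0.272. Skeletal muscle was represented by 3 of 12 genes. Pvalb, given above with the inhibitory neuron genes, held 86.9% ± 1.47 of their sum. Acta1, the actin of skeletal muscle, was at 13.3, 13.3 and 13.6 RPKM, and Mylpf at 0.847 ± 0.241.

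Markers of other brain regions were few. From the forebrain list 5 of 18 genes were analysed, of which Camk2a (35.8 ± 2.39) and Nrgn (23.2 ± 3.17) led, and Neurod6 was at 1.78 ± 0.169. The cerebellum and midbrain list (7 of 14, median 1.44 RPKM) was led by Cbln1 at 17.3 ± 0.576 and Zic1 at 7.39 ± 0.431, and Th, which makes dopamine, was at 0.966 ± 0.150. Xist, the RNA that silences an X chromosome in females, stood at 114, 94.8 and 86.5 RPKM, in mice labelled female, and genes of the Y chromosome were not analysed here.

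Hox genes peaked at paralogue number 8. Of 27 analysed, 25 reached 0.5 RPKM in all 3 libraries. Hoxb8 led at 148, 136 and 134 RPKM, followed by Hoxc8 at 66.2, 70.6 and 69.7 RPKM, Hoxa7 at 40.9, 37.9 and 40.7 RPKM and Hoxd8 at 38.6, 36.2 and 38.4 RPKM. Hoxb8 was 2.03 ± 0.177 times as high as Hoxc8 and the libraries did not overlap, whereas Hoxa7 and Hoxd8 overlapped. Paralogue number 8 held 49.8% ± 0.786 of the summed Hox level, number 7 held 14.2% ± 0.375 and number 9 held 9.89% ± 0.281. Levels were lower on both sides of this peak. Numbers 5 and 6 held 8.31% ± 0.0799 and 7.90% ± 0.198, number 4 held 4.39% ± 0.0994 and number 1 held 0.218% ± 0.0297.

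In the direction of the tail, Hoxb9 was at 26.8 ± 0.721 and Hoxc10 at 2.61, 2.27 and 2.81 RPKM, while Hoxa10 was at 0.509, 0.1 and 0.1 RPKM, and number 10 held 0.566% ± 0.0613. Hox genes with a number above 10 were not analysed here. By cluster, HoxB held 52.5% ± 0.793 of the sum, HoxC 21.4% ± 0.783, HoxA 16.7% ± 0.190 and HoxD 9.46% ± 0.131. Within the HoxA cluster, Hoxa5 stood at 16.5, 16.2 and 16.3 RPKM and Hoxa6 at 3.73, 4.61 and 3.84 RPKM, a dip between Hoxa5 and Hoxa7 in every library. The labels do not say which segments of the cord the tissue held.

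**Figure D4:**
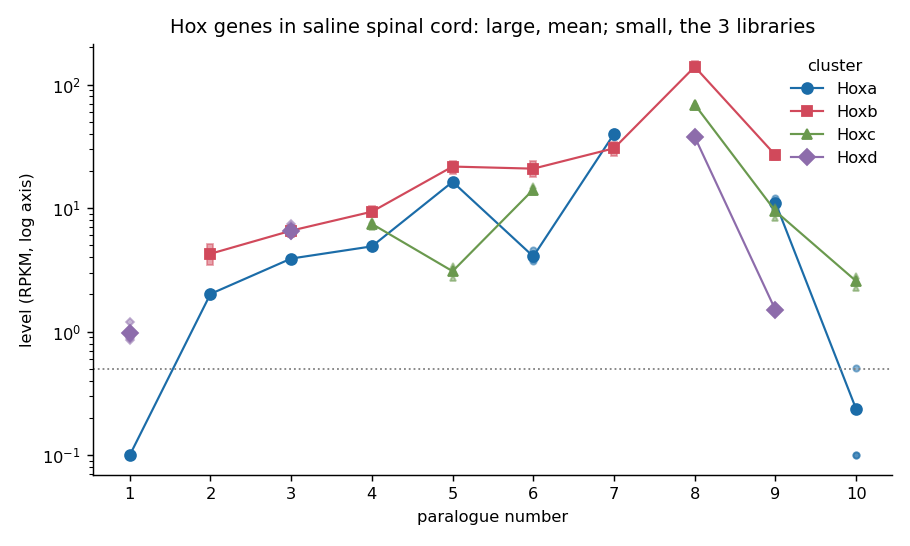
Level of each Hox gene (RPKM, log axis) by paralogue number, with a colour for each cluster; large symbols are means, joined where numbers follow each other, small symbols are the 3 saline libraries, and the dotted line is 0.5 RPKM. Number 8 is the peak for Hoxb, Hoxc and Hoxd.

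Other patterning factors of the embryonic cord were low. Of the LIM homeobox genes, Lmx1b, a factor of dorsal excitatory neurons, led at 4.98 ± 0.0870, ahead of Lhx5 (1.99 ± 0.116), Lhx1 (1.62 ± 0.122), Lhx4 (0.881 ± 0.223) and Isl2 (0.414 ± 0.277). Pax2, a factor of inhibitory interneurons, was at 5.09, 7.30 and 6.16 RPKM and Pax8 at 4.37 ± 0.179, with Pax6 at 1.77 ± 0.0130 and Pax3 at 0.634 ± 0.0597. Irx3 (3.70 ± 0.225), Irx2 (1.84 ± 0.0607), Irx1 (1.59 ± 0.0885) and Irx5 (1.32 ± 0.0218) were in the same low range. In the Zic family, which patterns the dorsal cord, Zic1 led and Zic2 (2.55 ± 0.153), Zic5 (0.698 ± 0.140) and Zic4 (0.592 ± 0.0203) were lower. Sox factors reached higher levels. Sox10 of oligodendrocytes was at 36.3, 30.1 and 28.8 RPKM, Sox8 at 25.4 ± 0.876, Sox2 at 20.2 ± 1.72 and Sox9 of astrocytes at 13.3 ± 0.266, with Sox4 at 5.05 ± 0.115.

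Receptors for fast transmission are given by subunit. Glrb, the beta subunit that anchors glycine receptors at the synapse, was at 105, 112 and 115 RPKM. Glra1, the adult alpha subunit, stood at 29.6, 57.6 and 37.6 RPKM, 11.8 ± 2.80 times the embryonic Glra2 (3.48 ± 0.367), with Glra3 at 2.08 ± 0.790 and Glra4 at the floor. Glra1 was 1.94 times as high in replicate 2 as in replicate 1. Replicate 2 was highest for Glra1, Glra2 and Glra3 and not for Glrb.

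For GABA-A receptors 14 subunits were analysed. Gabra3 was at 32.2 ± 2.60, Gabra5 at 18.0 ± 1.61 and Gabra2 at 15.5 ± 0.897, and 11 of the 14 were highest in replicate 2, beside 34.5% of all genes at 5 RPKM or more. Both GABA-B subunits were found at unequal levels, Gabbr1 at 103 ± 2.81 and Gabbr2 at 24.1 ± 3.51, although the receptor is built from a copy of each.

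AMPA receptor genes, which carry fast glutamate transmission, stood in the order Gria2 (51.8, 56.8 and 54.7 RPKM), Gria1 (29.4, 36.0 and 31.6 RPKM), Gria4 (29.8 ± 3.41) and Gria3 (25.3 ± 1.81). Gria2, whose edited subunit keeps calcium out, was above the other three in every library. Among NMDA receptor genes the obligate subunit Grin1 (54.6 ± 3.01) held 71.0% ± 1.12 of the sum, and Grin2d (6.60 ± 0.206) and Grin3a (5.85 ± 1.01) came before Grin2b (3.12 ± 0.405) and Grin2c (2.79 ± 0.253). Grin2a was at 2.08, 3.998 and 2.20 RPKM, highest in replicate 2. Kainate receptor genes were led by Grik5 (17.4 ± 0.508), then Grik2 (11.3 ± 0.831), Grik3 (5.63 ± 0.593), Grik4 (4.38 ± 0.135) and Grik1 (3.80 ± 0.0985), and no neighbours in that order overlapped. Grm5 (41.2 ± 6.70) led the metabotropic receptors before Grm3 (11.5 ± 2.06), Grm4 (5.93 ± 0.529), Grm8 (1.14 ± 0.152) and Grm2 (0.747 ± 0.0439).

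Receptors of the modulators were mostly low. Chrna4, a nicotinic subunit, stood at 21.3 ± 3.06 with its usual partner Chrnb2 at 7.23 ± 0.537, then Chrna7 at 1.41 ± 0.512, Chrna3 at 0.972 ± 0.0689 and Chrna2 at 0.734 ± 0.0774. Chrm2, the muscarinic receptor of motor neurons, was at 11.9, 16.0 and 14.7 RPKM and held 76.3% ± 0.357 of its family's sum, with Chrm3 (2.11 ± 0.524), Chrm4 (1.19 ± 0.0420) and Chrm5 (1.12 ± 0.0900) below it. Among serotonin receptors Htr2c (20.003 ± 2.34) led before Htr7 (6.88 ± 0.286), Htr1a (3.76 ± 0.267), Htr2a (1.81 ± 0.599) and Htr5a (1.63 ± 0.216). Adra2a, the receptor through which clonidine acts, stood at 8.28 ± 0.138, above Adra1a (3.70 ± 0.582), Adra1b (3.22 ± 0.0711), Adrb1 (1.08 ± 0.0302) and Adra1d (0.812 ± 0.0640). The nociceptin receptor Oprl1 was at 10.4 ± 0.545, the kappa receptor Oprk1 at 3.07 ± 0.345, the delta receptor Oprd1 at 2.42 ± 0.240 and the mu receptor Oprm1, the target of morphine, at 0.594, 1.23 and 0.711 RPKM.

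**Figure D5:**
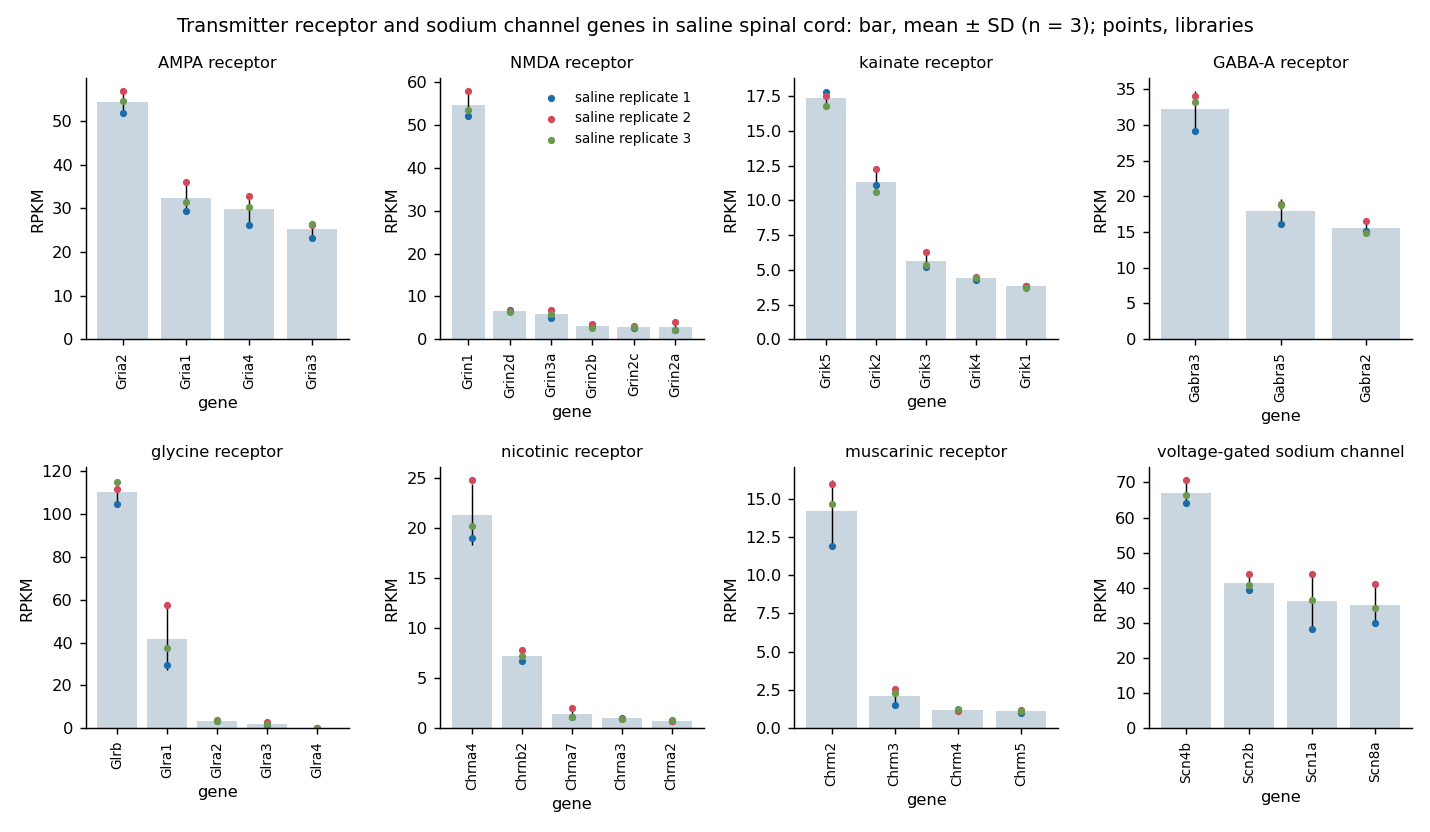
Levels of the receptor and sodium channel genes described in the text, in RPKM on linear axes starting at 0; bars are means, error bars SD (n = 3) and points the 3 saline libraries. Glrb, Grin1 and Chrm2 each stand well above the other genes in their panels, and replicate 2 is the highest point for Glra1.

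Ion channel genes ranged widely in level. Of the sodium channel genes, the auxiliary subunits Scn4b and Scn2b were at 67.1 ± 3.32 and 41.4 ± 2.27. The pore-forming Scn1a (28.2, 43.8 and 36.4 RPKM) and Scn8a (29.9, 40.9 and 34.1 RPKM) came next and overlapped. Of the potassium channel genes, Kcna1 was at 66.1 ± 10.01, Kcnc1 at 57.6 ± 3.70 and Kcna2 at 22.5 ± 8.24. In this family 28 of 33 genes were highest in replicate 2, beside 34.5% of all genes at 5 RPKM or more. The family's median level was lower than that, at 3.01 RPKM, and its median length was 4845 bases. After Cacna1e, the calcium channel genes were Cacng7 (64.0 ± 3.60), Cacnb4 (23.9 ± 2.90), Cacng2 (23.2 ± 2.77) and Cacna1a (22.4 ± 1.56). Connexins, the proteins of gap junctions, were led by Gjc3 of oligodendrocytes (191 ± 14.2) and Gja1 of astrocytes (143 ± 4.08), followed by Gjb1 (58.8 ± 8.92) and Gjb6 (33.4 ± 3.91). These 4 did not overlap with one another in range.

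Levels of cytoskeleton and transport genes differed by family. Beta tubulins were led by Tubb4a (577 ± 44.7), a form rich in oligodendrocytes, far above Tubb2a (204 ± 19.8), Tubb4b (163 ± 17.1), neuronal Tubb3 (162 ± 18.2) and Tubb2b (141 ± 11.98). The calmodulin gene Calm3 (605 ± 24.4) was below Calm2 in every library. The 14-3-3 family was led by Ywhae (463 ± 15.4), Ywhah (373 ± 12.1), Ywhag (281 ± 8.83), Ywhaz (249.4 ± 1.84) and Ywhaq (172 ± 5.54), with Ywhab at 112 ± 5.39, and no neighbours overlapped. The 29 kinesins, the motors that carry cargo out along axons, had a median of 4.57 RPKM, with 4 at the floor in all 3 libraries, and Kif5a (286 ± 30.5) led before Kif5b (161 ± 8.34) and Kif1a (132 ± 18.0). For vesicle release, Syt11 (197 ± 8.69) led the synaptotagmins, the calcium sensors Syt2 and Syt1 were at 83.7 ± 12.2 and 49.1 ± 6.51, and Rab3a of synaptic vesicles was at 182 ± 14.3.

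The machinery of translation and respiration made up a further block. The 81 genes of cytosolic ribosomal proteins had a median of 120.3 RPKM, and Rps6 (430.3, 352 and 420.3 RPKM), Rps23 (353 ± 58.6) and Rpl19 (296 ± 42.3) led them. Every one of the 81 was lowest in replicate 2, as were 43.8% of all genes at 5 RPKM or more. The nuclear subunits of complex I (36 genes, median 62.2 RPKM) were led by Ndufa4 (345 ± 52.5), with 35 lowest in replicate 2, those of complex IV (16, median 131 RPKM) by Cox5b (457 ± 57.7), with 15 lowest there, and those of ATP synthase (17, median 135 RPKM) by Atp5b (346 ± 17.4), with 16 lowest there. The median exon length in these 4 families was 1781, 1532, 1026 and 2039 bases. Protocadherins outside the clusters, with a median of 10464 bases, ran the other way. Of these adhesion genes, 11 of 11 were highest in replicate 2, beside 34.5% of all genes at 5 RPKM or more. In the quintile of the longest genes that share was 66.4%, and the median level of the family was 3.88 RPKM. Its members include Pcdh9 (29.4, 40.3 and 30.5 RPKM) and Pcdh7 (5.41, 11.6 and 7.56 RPKM). Genes encoded on mitochondrial DNA were not analysed here.

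Metabolic genes ranged from very high to low. Glycolysis (21 genes, median 96.6 RPKM) was led by Pkm (555 ± 27.3), Aldoc (392 ± 25.2) and Ldhb (319.9 ± 30.6). Cholesterol synthesis, which myelin depends on, had a median of 22.9 RPKM over 21 genes, with Idi1 at 75.8, 75.3 and 76.3 RPKM and Insig1 at 68.9 ± 1.28, and its summed level was 678 ± 6.37 RPKM, a narrow spread. In the iron list (14 genes, median 9.74 RPKM) Fth1 held 93.1% ± 0.461 of the sum and was 79.5 ± 6.54 times the light chain gene Ftl1 (87.5 ± 5.72). Ferritin genes have many processed copies, so reads may be split between them. Of the antioxidant list (23 genes, median 51.0 RPKM), Sod1 was at 347, 263 and 333 RPKM and the metallothioneins Mt3, Mt1 and Mt2 were at 266 ± 45.7, 238 ± 17.6 and 132 ± 15.6.

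Genes known to respond to activity or injury were mostly low. Among immediate early genes (24 analysed, median 2.53 RPKM), Jund was at 28.2 ± 4.66, Egr1 at 19.0 ± 1.18 and Fos at 6.10, 5.002 and 4.73 RPKM. In the reactive astrocyte list (18 analysed, median 2.82 RPKM) Gfap held 77.3% ± 1.25 of the sum, with Vim at 44.1 ± 6.56, C3 at 37.0 ± 1.12, C4b at 26.1 ± 3.45 and Serpina3n at 19.1 ± 1.78. Interferon response genes (19 analysed, median 3.11 RPKM) were led by B2m (133 ± 8.54) and Ifi27 (26.6 ± 5.20). Hspa1a, the heat-inducible chaperone, was at 2.76, 2.42 and 3.03 RPKM, while the heat shock list as a whole (15 analysed) had a median of 88.1 RPKM. Clock genes (19 analysed, median 10.6 RPKM) were led by Nr1d2 (36.0 ± 3.17) and Dbp (32.1 ± 3.001), whose levels follow the time of day. Neuropeptide genes (28 analysed, median 11 RPKM) were led by the granins Chga (193 ± 16.8), Chgb (176 ± 13.1) and Scg2 (166 ± 1.78) and by Penk, the source of enkephalin (82.6 ± 8.69).

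Genes tied to amyotrophic lateral sclerosis and frontotemporal dementia, diseases of motor neurons and cortex, had a median of 35.9 RPKM over 40 genes, a level above that of 87.6% of all genes. C9orf72, the gene the series targets in its other groups, stood at 10.5, 11.4 and 11.5 RPKM. Its protein partners were at similar levels, Smcr8 at 7.99, 11.1 and 8.91 RPKM and Wdr41 at 12.7, 12.4 and 12.7 RPKM. The ranges of C9orf72 and Smcr8 overlapped, and Wdr41 was above C9orf72 in every library. Sod1 and Kif5a led the list, followed by Mapt (207 ± 8.46), Stmn2 (190.2 ± 7.96) and Hnrnpa1 (181 ± 10.9), and Tardbp, the gene of TDP-43, was at 87.9 ± 2.07.

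MicroRNA genes were listed too, with 103 analysed, 39 at 0.5 RPKM or more in all 3 libraries and 26 at the floor in all. These values count reads at the hairpin genes' loci in libraries of total RNA, not mature microRNAs. Shown are the mature sequences of the 3 highest loci with a seed (bases 2 to 8) in capitals, from RefSeq on GRCm38.p6, because the 2 highest encode the same one.
Mir1906-1 and Mir1906-2: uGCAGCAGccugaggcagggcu
Mir770, 5p arm: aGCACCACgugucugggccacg
Mir770, 3p arm: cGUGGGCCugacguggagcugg
Mir1906-1 stood at 111, 98.3 and 109.1 RPKM and Mir1906-2 at 99.96, 90.2 and 101 RPKM. Mir1906-1 lies within Meg3 on chromosome 12 (chr12:109544588-109544609, plus strand), and Mir1906-2 lies on chromosome X (chrX:88759485-88759506, minus strand). Because the mature sequences are identical, reads may be split between the copies. Mir770, also within Meg3, was at 35.7, 19.2 and 25.1 RPKM, highest in replicate 1, while Meg3 itself was at 679, 566 and 595 RPKM. Of the 5 microRNA genes with the highest mean, 3 lie inside Meg3 or its neighbour Rian, among them Mir1188 at 15.2, 10.1 and 8.04 RPKM. Among the 10 highest the count was also 3. The share over all microRNA genes was not counted, so no excess at the top is claimed.

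Promoters of the most abundant genes were searched for the TATA box letters TATAAA on the gene's strand. The whole hexamer had to lie 45 to 20 bases before the start, and it is shown in capitals below. The window shown is 60 bases long and comes from RefSeq on GRCm38.p6, for 5 leading genes in which it occurs.
Meg3: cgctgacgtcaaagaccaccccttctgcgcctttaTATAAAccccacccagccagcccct
Ckb: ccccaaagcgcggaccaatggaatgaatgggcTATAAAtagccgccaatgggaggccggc
Sod1: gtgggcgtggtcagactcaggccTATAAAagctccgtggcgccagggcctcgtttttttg
Ppia: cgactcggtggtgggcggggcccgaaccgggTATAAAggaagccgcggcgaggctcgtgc
Ndrg4: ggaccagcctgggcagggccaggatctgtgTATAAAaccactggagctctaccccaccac
These windows are chr12:109540936-109540995 (plus strand), chr12:111672339-111672398 (minus), chr16:90220702-90220761 (plus), chr11:6415807-6415866 (plus) and chr8:95702996-95703055 (plus) in that order. The hexamer was in this place at 4.0% of 125 starts of the 100 highest genes, at 2.42% of 661 starts of the 500 highest, at 2.56% of 587 starts of the 500 lowest and at 1.07% of all 14127 starts of genes analysed here. On the other strand (TTTATA, which can share letters with the first), a match in the same place was found for 2.0% of the 100 highest genes (2 genes), 1.2% of the 500 highest, 0.8% of the 500 lowest and 0.391% of the 10988 genes with a promoter. A match is a description of letters and says nothing on binding. Ppia, an isomerase often used as a reference gene, stood at 286 ± 24.8 and Ndrg4, a neuronal gene, at 276 ± 7.03.

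The spread between the saline libraries was small for most genes. Among 9205 genes averaging 5 RPKM or more, with no library at the floor, the median coefficient of variation (CV, SD over mean) was 6.31%, with quartiles of 3.85% and 9.51%. Counting error alone would give a median of 1.09% at this depth. By level, the median CV was 14.7% under 1 RPKM, 7.68% from 2 to 5 RPKM, 6.12% from 10 to 30 RPKM and 7.38% from 100 to 1000 RPKM, so that above 5 RPKM it changed little with level. A CV over 25% was found for 56 genes, and 40 of these were highest in replicate 2, beside 34.5% of all 9205 genes. Without replicate 2 the count was 34, without replicate 3 it was 178, and the median CV without replicate 2 was 4.24%.

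Sgk1, a kinase induced by glucocorticoids, had the largest CV at 56.3%. It stood at 13.8, 39.7 and 53.3 RPKM, a range of 3.85 times. Arl4d, a small GTPase, was ordered in the same way at 3.31, 7.17 and 8.61 RPKM, with a CV of 43.1%, and both were lowest in replicate 1 and highest in replicate 3. Slc9a7 (3.07, 8.44 and 4.72 RPKM), Lnpep (6.08, 13.03 and 7.73 RPKM) and Fzd3 (4.38, 9.09 and 5.28 RPKM) were 2.74, 2.14 and 2.07 times as high in replicate 2 as in replicate 1. Slc15a2, a peptide transporter, ran the other way at 9.66, 4.28 and 6.43 RPKM. Of the 20 genes with the largest CV, 14 were highest in replicate 2, beside 34.5% of all genes at 5 RPKM or more. Among the 14 were Trpm3 (11.7, 24.8 and 15.3 RPKM), Pcdh7, Kcna2 (15.3, 31.5 and 20.7 RPKM), Bmpr2 (12.1, 23.3 and 14.6 RPKM) and Glra1. The genes over 25% that were highest in replicate 2 had a median exon length of 11906 bases, against 4695 for all genes in this set. Hnrnpll (117 ± 0.0912), Ercc6l2 (6.69 ± 0.00905), Wdr13 (31.1 ± 0.0568), Dcaf6 (14.7 ± 0.0281) and Wdr20 (7.78 ± 0.0155) had the smallest CVs, from 0.0782% to 0.199%, which is below their counting error of 0.256% to 1.43%.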

How the data were processed

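Strand-specific libraries of total spinal cord RNA from 3 saline-injected mice were analysed, and the other 6 libraries of the series were not used. Per the submitters' processing notes, the tools were cutadapt 1.2.1, which trims adapters, and the aligner GSNAP, on mm9. How reads were counted, and on which annotation, is not given in the sources here. The authors' deposited values were treated as RPKM. This unit is an inference from the numbers, as no header states it. For genes of at most 350 bases the product of value and length falls mostly near multiples of a step. The step was the best-fitting of many tried, and it also gave the depth. Values under 0.5 RPKM stand at 0.1 in the deposited table, and this floor limits low genes before depth does, since 0.5 RPKM is 53.1 to 62.0 reads per kilobase.

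Symbols matched 14321 of 14831 gene IDs. Exon lengths and types came from GENCODE on GRCm38, which is not the authors' build, so no position of their features is given. MicroRNA and promoter sequences and their positions are from RefSeq on GRCm38.p6, where 97 of the 103 microRNA genes had a sequence. No rescaling was applied. Means, SDs, CVs, shares and ranges were computed over the 3 libraries with Python 3.11.15, pandas 2.3.3 and numpy 2.4.6, and the steps were tested on simulated data. Genes that share all 3 values with another gene (12) were kept.

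The rule named the 30 highest genes, up to 5 leading members of each of 34 lists and 56 families (all members of families of up to 6), the 20 largest and 5 smallest CVs among genes at 5 RPKM or more, and a fixed set; some items it names are not reported here. The members, lists and families were chosen with earlier results of these data known. Pairs given as ratios, length quintiles, the promoter motif, microRNA loci and further members were chosen after values were seen. Alternatives covered the threshold, scaling, pseudocount, floor, filters and each library left out.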

Additional observations from a re-analysis of the deposited data

How the results depend on the processing

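No choice tried moved the number of genes detected by 1.5 times or more, and no level of a named gene or share of a family's leading member moved by more than its SD under rescaling. With a library left out such means stay within 1 SD by construction. With the most abundant gene left out, the shares of the 10 and 100 highest genes were 8.49% and 21.3%, and as shares of reads (value times exon length, over genes with a length, which leaves that gene out) 14.7% and 25.9%. Keeping only members at 1 RPKM or more in all 3 libraries, which drops low members by construction, raised list medians to 13.4 RPKM for motor neurons, 10.1 for excitatory neurons, 5.83 for meninges, 4.32 for ependyma, 1.54 for choroid plexus, 15.2 for Schwann cells, 8.06 for ganglion neurons and 54.4 for skeletal muscle. The muscle value lies between Acta1 and Pvalb, which is also on the inhibitory neuron list, and the Schwann cell value between Sox2 and Cdh19. With floor values raised to 0.5 RPKM the granulocyte and lymphocyte median was 0.5. Leaving out 1 library gave 12.2 to 13.4 RPKM for motor neurons, 3.19 to 3.38 for meninges, a median CV of 4.24% to 7.09% and 34 to 178 genes with a CV over 25%. That count was 280 with no filter on the mean, 204 from 1 RPKM and 36 as an SD of log2 with a pseudocount of 1. No paired analysis was possible because there is 1 group. The floor, not depth, limits genes under 0.5 RPKM.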

Other observations

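Further families of the saline cord were measured beside those above. Of the genes of protein breakdown, 36 proteasome subunits had a median of 45.4 RPKM, led by Psmc5 (155 ± 11.6) and Psmc1 (133 ± 9.35), 17 subunits of the vacuolar ATPase, which acidifies lysosomes and synaptic vesicles, had a median of 65.2 RPKM, led by Atp6v1e1 (151 ± 15.1), and the lysosomal proteases Ctsb and Ctsd were at 107.4 ± 1.198 and 96.4 ± 5.40. The 32 collagens had a median of 1.89 RPKM, led by Col11a1 (18.7, 14.8 and 16.6 RPKM) and Col11a2 (12.7 ± 1.97). Of these collagens, 21 were lowest in replicate 2, beside 43.8% of all genes at 5 RPKM or more, a level above the collagen median. Laminins had a median of 1.21 RPKM, led by Lamc1 (8.67 ± 0.578). Semaphorins, cues that steer axons, had a median of 6.75 RPKM, led by Sema6d (36.0 ± 2.29), and among ephrins and their receptors Efnb3, a midline cue of the cord, held 45.4% ± 0.304 of the sum at 82.5, 77.2 and 74.97 RPKM. Of the growth factors, Fgf1 (71.1 ± 1.14) led the fibroblast growth factors, and the highest of the Wnt genes was Wnt3 at 3.99 ± 0.261.

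Among all genes at 5 RPKM or more, 34.7% were lowest in replicate 1 and 24.4% were highest in replicate 3. The share with both was not counted. Of the 56 genes with a CV over 25%, 4 were lowest in replicate 1 and highest in replicate 3 as Sgk1 was. Beside Sgk1 and Arl4d these were the long RNA EU599041 (8.72, 13.4 and 14.6 RPKM) and Rec8, a cohesin subunit of meiosis (4.66, 4.94 and 7.45 RPKM), with 1.67 and 1.60 times between the lowest and the highest library. The exon lengths of Sgk1, Arl4d and EU599041 were 4903, 1382 and 2740 bases. The 4 genes were picked by this order of libraries, so by construction replicate 2 was the highest library for none.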
